A study of Mus musculus with 6 samples.

Results

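The nuclear-encoded subunits of oxidative phosphorylation were examined in ECs (endothelial cells) sorted from tumors. The members were the IDs whose names follow those of these subunits, Nduf (complex I), Sdh (complex II), Uqcr (complex III), Cox (complex IV) and Atp5 (complex V). The naming pattern took 81 of the 24346 IDs in the tables, of which 36 belonged to complex I, 4 to complex II, 8 to complex III, 16 to complex IV and 17 to complex V. The pattern reads the names only, and it was set with earlier results of these data known. MC38 cells, a mouse colon carcinoma line, were grown in WT C57BL/6 mice and in Apelin-KO mice of the same background, which lack Apelin in every tissue. The mice were 8 to 10 weeks old, the tumors were taken at day 19, and CD31+ CD45- cells were sorted from them. RNA-sequencing covered 3 samples of each genotype, and the sample names also carry the word saline for both genotypes. The labels number the samples 1 to 3 within each genotype and do not say whether a sample was 1 mouse or a pool, so the p-values measure the spread between these samples.

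In oxidative phosphorylation, complexes I and II pass electrons from NADH and succinate to ubiquinone, complex III hands them on to cytochrome c, and complex IV passes them to oxygen. Complexes I, III and IV pump protons across the inner mitochondrial membrane, and complex V, the ATP synthase, uses the return flow to make ATP. Most subunits are encoded in the nucleus and join a smaller set that is encoded in mitochondrial DNA. ECs are known for making much of their ATP by glycolysis, and their respiration has been linked to proliferation.

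The depth was estimated at 8920000 to 10170000 reads per sample, from the steps that single reads make in low FPKM (fragments per kilobase of a transcript, scaled to the mapped reads). Apln, the deleted gene, measured 432, 435 and 504 FPKM in the WT group, against 9.96, 17.5 and 24.3 FPKM in the Apelin-KO group. All 15 endothelial markers had a mean of at least 1 FPKM, with a sum of 4772 to 5710 FPKM in WT and 5882 to 6202 FPKM in Apelin-KO samples. The sum of 20 hematopoietic markers came to 562, 965 and 269 FPKM for WT 1, 2 and 3, against 113, 330 and 294 FPKM for Apelin-KO 1, 2 and 3. The sum of 14 fibroblast markers was 227 to 400 FPKM in WT and 150.3 to 239 FPKM in Apelin-KO samples. In this bulk RNA, fewer cells of a type and less RNA per cell cannot be told apart. The part of these other cells in the values below was not tested.

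The subunits were among the abundant transcripts of the tumor ECs. The 81 IDs together took 2.51%, 2.79% and 2.61% of the FPKM sum for WT 1, 2 and 3, against 2.78%, 2.48% and 2.45% for the Apelin-KO samples in the same order. Of the 81 IDs, 74 averaged 1 FPKM or more across the samples, which was the minimum for testing. These were 36 of complex I, 4 of complex II, 8 of complex III, 10 of complex IV and 16 of complex V. The median of their mean levels was 129.6 FPKM, against 11.6 FPKM for the 10964 genes tested. By complex the median was 114 FPKM in complex I, 147.5 FPKM in complex II, 246 FPKM in complex III, 223 FPKM in complex IV and 165 FPKM in complex V. The summed FPKM of complex I was 4990 ± 352 in WT and 5048 ± 509 in Apelin-KO samples (SD, n = 3 each). That of complex V was 3616 ± 194 in WT and 3544 ± 302 in Apelin-KO samples. For both complexes the difference between genotypes was smaller than the spread within one genotype. The same held for complex II (553 ± 20.0 and 556 ± 47.6 FPKM), complex III (1702 ± 120.5 and 1727 ± 185 FPKM) and complex IV (2380 ± 161 and 2430 ± 241 FPKM).

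**Figure D1:**
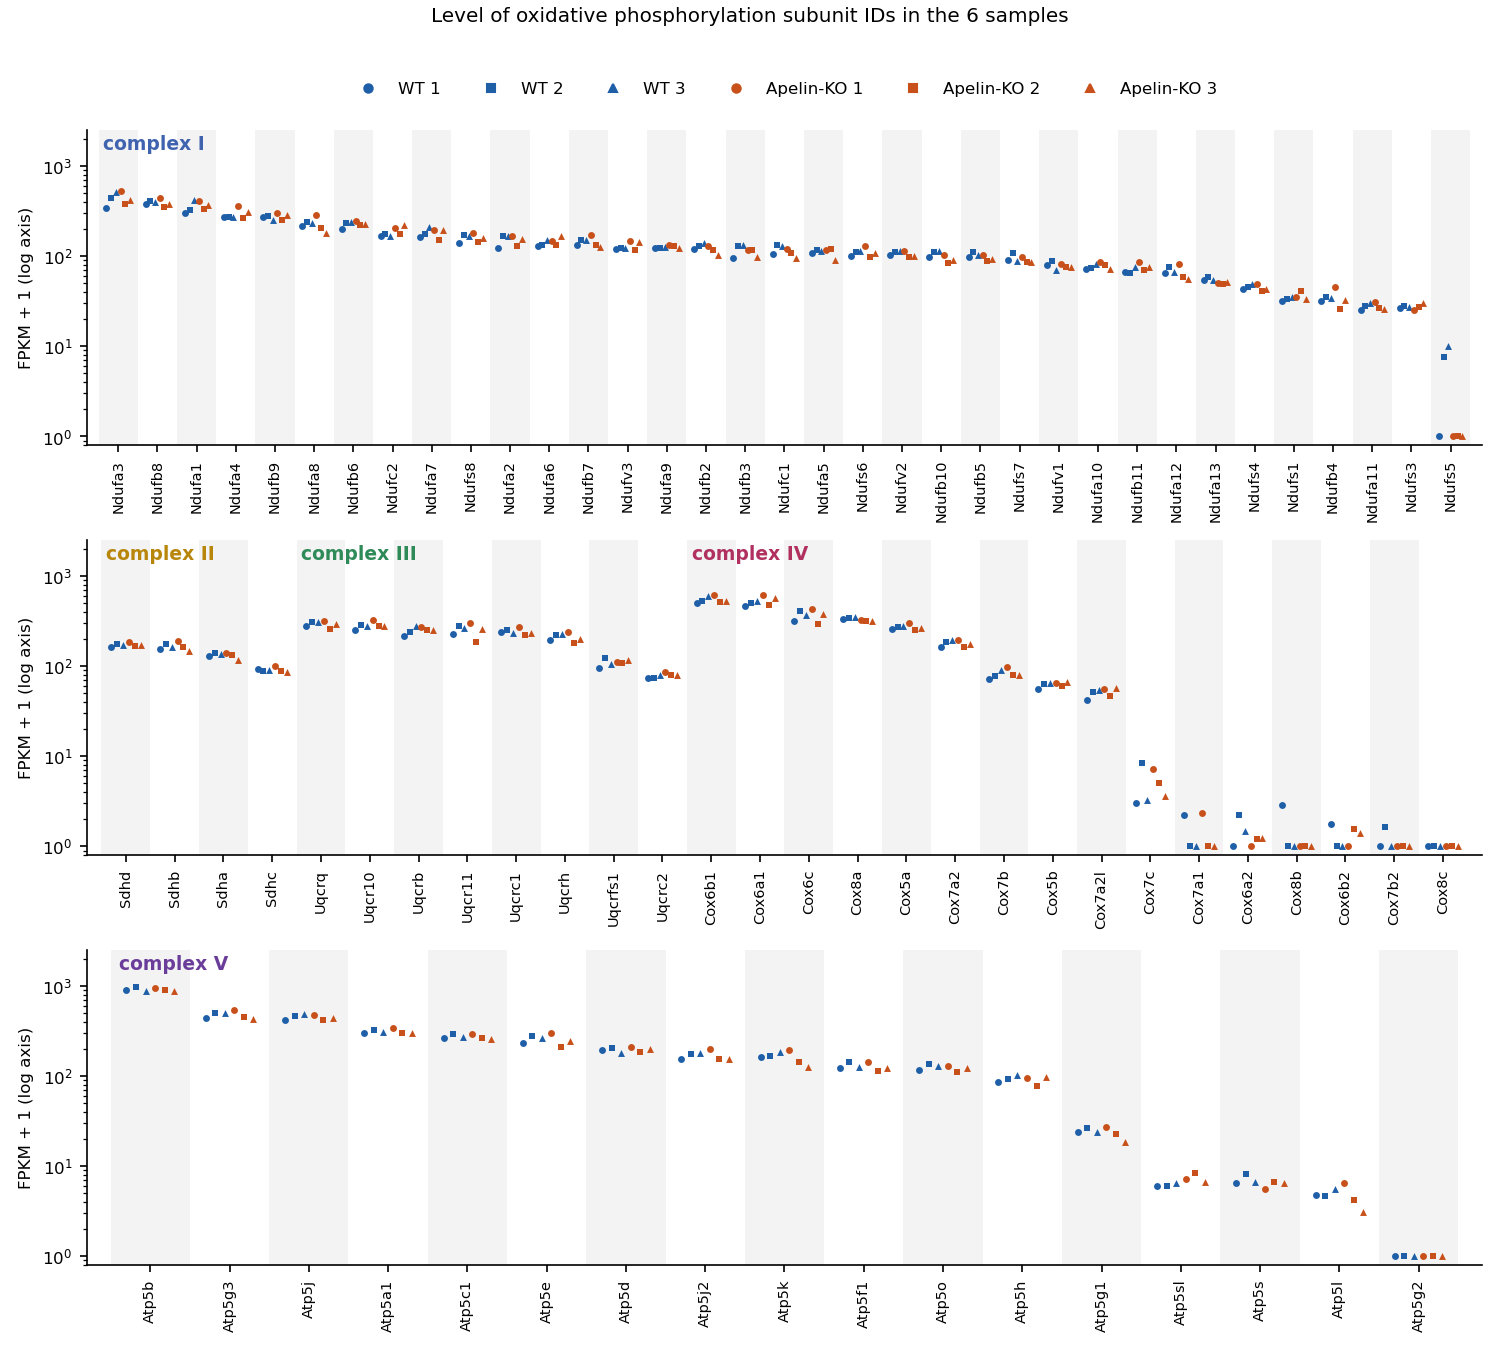
FPKM + 1 of 80 of the 81 subunit IDs (log axis) in 3 WT samples (blue) and 3 Apelin-KO samples (orange), ordered by mean level within each complex. Most IDs lie between 26.4 and 914 FPKM with the 6 samples close together, while Ndufs5, Cox7c, Atp5l, Atp5s, Atp5sl, Atp5g2 and 6 tissue isoforms of complex IV stand apart at the low end.

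No subunit passed the test between WT and Apelin-KO ECs after adjustment. The fold changes are WT minus Apelin-KO on the scale of log2(FPKM + 1). With limma, 0 of 74 subunits had a Benjamini-Hochberg adjusted p under 0.05, where 1 of all 10964 genes tested, Apln itself, did (0.00912%). At an unadjusted p under 0.05, 1 subunit was counted (Ndufs5), which is 1.35% of 74, where 9.42% of all genes tested were counted. Ndufs5 reached the minimum level for testing only through WT 2 and WT 3, so its count is no support for a difference. Every WT sample was above every Apelin-KO sample for 2 subunits, Ndufa13 and Cox8a, where 6.61% of all genes tested did this. Every WT sample was below every Apelin-KO sample for 2 others, Ndufc2 and Atp5sl, where 7.77% of all genes did. The numbers of subunits called were thus below the shares over all genes. The log2 fold change was above 0 for 38 subunits and below 0 for 36, with a median of 0.01 against -0.01 over all genes tested. All but Ndufs5 lay within 0.3 of 0 on the log2 scale. With scaling to TPM the split became 53 above 0 and 21 below, with a median of 0.05 against 0.03 over all genes. The split also turned with single libraries, since 56 subunits were above 0 without WT 1 and 53 without Apelin-KO 1, but only 29 without WT 2, 24 without Apelin-KO 2 and 29 without Apelin-KO 3.

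The data bound most of these differences closely. The 95% confidence interval of the fold change lay inside 1.5-fold in both directions for 70 of 74 subunits. The exceptions were Ndufs5, Cox7c, Atp5l and Atp5k. The distance from the fold change to either end of the interval had a median of 0.28 on the log2 scale over the subunits, which is 1.22-fold, against 0.32 over all genes tested. The median residual SD was 0.13 for the subunits and 0.16 for all genes tested. Differences smaller than these widths are not excluded with 3 samples of each genotype, and the widths are not limits of detection. The smallest p that an exact permutation test can give with 3 samples in each group is 0.1.

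**Figure D2:**
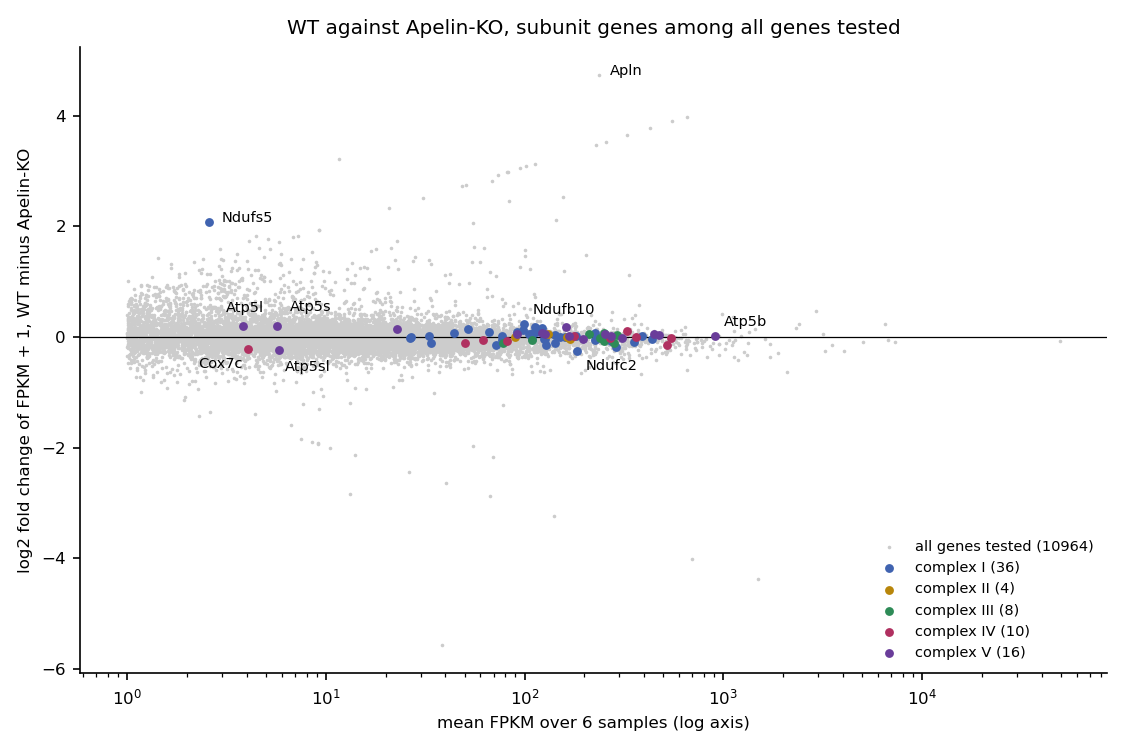
Log2 fold change of FPKM + 1 (WT minus Apelin-KO) against mean FPKM (log axis) for the 10964 genes tested (grey) and 74 subunit genes colored by complex. Most subunits lie in a narrow band around 0 at the abundant side. Cox7c, Atp5l, Atp5s and Atp5sl are also near 0 but at mean levels of 3.82 to 5.81 FPKM. Ndufs5 stands at 2.08, which rests on 2 of the WT samples.

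Complex I takes electrons from NADH, and its 36 IDs split into 19 with a log2 fold change above 0 and 17 below. The number above 0 was 25 with scaling to TPM, and ran from 13 without Apelin-KO 2 to 26 without WT 1. The flavin and the iron-sulfur clusters are held by some of its core subunits. Among all core subunits, with or without these, Ndufs3 had a mean level of 26.4 FPKM, Ndufs1 of 33.9 FPKM and Ndufs8 of 159.5 FPKM. Ndufv1, the subunit that binds NADH, was at 78.9, 86.4 and 69.5 FPKM in WT and at 80.4, 74.1 and 75.6 FPKM in Apelin-KO samples, so that the groups overlapped. The accessory subunit Ndufa3 had the highest mean level of the complex. It was at 344, 438 and 517 FPKM in WT and at 530.0, 374 and 420 FPKM in Apelin-KO samples. The lowest and the highest of these values differed more within a genotype than the means did between genotypes, and the log2 fold change was -0.03 ± 0.19 (SE, limma, adjusted p = 0.97).

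Within complex I, Ndufc2, a small accessory subunit of the membrane arm, had the largest log2 fold change toward Apelin-KO. It was at 164.5, 174 and 165 FPKM in WT and at 204, 177 and 221 FPKM in Apelin-KO samples. The groups did not overlap, although WT 2 and Apelin-KO 2 were close. The log2 fold change was -0.25 ± 0.11 (SE), with a Benjamini-Hochberg adjusted p of 0.54 in limma, so it did not pass. Ndufa4, which is named for complex I but is found in complex IV, had the same tendency. It was at 272, 269 and 270.4 FPKM in WT and at 356.5, 260.5 and 311 FPKM in Apelin-KO samples, with a log2 fold change of -0.18 (95% interval -0.49 to 0.13). The 3 WT samples were nearly equal, and the Apelin-KO samples lay on both sides of them.

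Ndufb10, another membrane-arm subunit, lay the other way. It was at 97.2, 111 and 113.5 FPKM in WT and at 101, 83.2 and 90.6 FPKM in Apelin-KO samples, with a log2 fold change of 0.23 (95% interval -0.05 to 0.51). WT 1 was below Apelin-KO 1, so the groups overlapped. Ndufa13, also known as GRIM-19 and required for assembly of the complex, was at 52.7, 56.9 and 53.2 FPKM in WT and at 49.2, 48.0 and 49.99 FPKM in Apelin-KO samples. All WT values were above all Apelin-KO values, by a log2 fold change of 0.14 (95% interval -0.07 to 0.36, limma, adjusted p = 0.65). The tests thus left each of these subunits uncalled in both directions.

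Ndufs5, an accessory subunit of the membrane arm on the intermembrane side, had the largest log2 fold change of all 74 subunits. It was listed at 0.001, 6.54 and 8.99 FPKM for WT 1, 2 and 3, against 0.003, 0.001 and 0.003 FPKM for Apelin-KO 1, 2 and 3. Thus WT 2 and WT 3 stood apart, and WT 1 was like the Apelin-KO samples. At the estimated depths and with the 200-base fragments assumed for them, a single read on the 680-base transcript is worth 0.204 to 0.233 FPKM, so the other 4 values are each less than 1 read, and the values of WT 2 and WT 3 correspond to about 28.1 and 39.4 reads. The log2 fold change was 2.08 ± 0.79 (SE, limma, Benjamini-Hochberg adjusted p = 0.52). It was 4.16 with a pseudocount of 0.1, 3.11 without WT 1 and 1.45 without WT 3. The adjusted p ran from 0.0072 without WT 1 to 0.94 without WT 2, so the call depends on that single library.

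The gene Ndufs5 lies at chr4:123712710-123718202 on the minus strand of GRCm38, the build of mm10. A single-exon copy, BC002163, which GENCODE annotates as a processed pseudogene, lies at chr16:42955631-42955949 on the plus strand. Over the 318 bases of the Ndufs5 coding sequence the copy is 99.4% identical, with the 2 substitutions T81C and A105G (the base of Ndufs5, its position from the first base of the start codon, then the base of the copy). The first 300 bases of the coding sequence of Ndufs5 are shown to let the reader see how little separates the pair, with capitals at the bases that differ in the copy.
Ndufs5: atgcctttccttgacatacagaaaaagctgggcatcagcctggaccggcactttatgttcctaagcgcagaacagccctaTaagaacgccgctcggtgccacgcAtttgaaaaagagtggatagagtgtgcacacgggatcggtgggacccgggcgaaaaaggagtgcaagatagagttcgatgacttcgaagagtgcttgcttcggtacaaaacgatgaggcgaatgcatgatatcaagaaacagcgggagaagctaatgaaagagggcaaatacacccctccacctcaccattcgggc
A 75-base read that covers neither capital matches both loci. Of all 75-base windows of the coding sequence, 59.4% occur in the transcript of the copy. Over the whole 680-base transcript, untranslated bases included, the share was 24.1%.

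The copy BC002163 was listed at 112, 133 and 140 FPKM in WT and at 130, 124 and 122 FPKM in Apelin-KO samples, which is the level of a usual complex I subunit. Ndufs5 and BC002163 together came to 133 ± 19.2 FPKM in WT and 125 ± 4.35 FPKM in Apelin-KO samples (SD, n = 3 each). The difference of these sums was smaller than the SD of the WT samples. How the authors' counting shared reads between the loci is not given in the sources used here, so the level of Ndufs5 is uncertain.

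Complex II, succinate dehydrogenase, is also an enzyme of the TCA cycle and has no subunit encoded in mitochondrial DNA. Sdha, the flavoprotein that oxidizes succinate, was at 127, 138 and 134 FPKM in WT and at 139, 133 and 115 FPKM in Apelin-KO samples (log2 fold change 0.04 ± 0.11 SE, limma, adjusted p = 0.92). Sdhb, the iron-sulfur subunit, was at 153.5, 173 and 163 FPKM in WT and at 187, 162 and 144 FPKM in Apelin-KO samples (-0.00 ± 0.12). For both, Apelin-KO 1 was the highest sample and Apelin-KO 3 the lowest, and the groups overlapped. The groups overlapped for the membrane anchors too. Sdhc was at 91.4, 88.0 and 89.4 FPKM in WT and at 98.6, 86.4 and 84.4 FPKM in Apelin-KO samples (-0.00 ± 0.10). Sdhd was at 160.2, 173 and 169 FPKM in WT and at 182, 167 and 169 FPKM in Apelin-KO samples (-0.04 ± 0.10, adjusted p = 0.91). The 4 subunits thus stood within a factor of 2 of each other and within 1.5-fold between genotypes.

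Complex III carries electrons from ubiquinol to cytochrome c. Its 8 IDs had log2 fold changes from -0.11 to 0.07, with 3 above 0 and 5 below. With scaling to TPM 4 were above 0, without WT 1 5 were, and without Apelin-KO 2 0 were. The small subunit Uqcrq was the most abundant, at 274, 304 and 307 FPKM in WT and at 319, 260 and 290 FPKM in Apelin-KO samples (0.03 ± 0.12 SE, limma, adjusted p = 0.95). Uqcrfs1, the Rieske iron-sulfur protein, was at 95.03, 121 and 106 FPKM in WT and at 111, 108 and 115 FPKM in Apelin-KO samples. Of the pair of core proteins, Uqcrc1 had a mean of 240.5 FPKM and Uqcrc2 of 77.6 FPKM. Uqcrc2 had the lowest p of the complex, with 72.3, 73.4 and 78.0 FPKM in WT and 85.3, 77.6 and 79.1 FPKM in Apelin-KO samples (-0.11 ± 0.10, limma, adjusted p = 0.74). The groups of Uqcrc2 overlapped only through WT 3 and Apelin-KO 2, and its log2 fold change was -0.07 with TPM and -0.07 without Apelin-KO 1. Uqcr11, a small membrane subunit, was widest in spread, at 225, 276.5 and 264.5 FPKM in WT and at 302, 184 and 255 FPKM in Apelin-KO samples (0.07 ± 0.19, adjusted p = 0.93). Its highest and its lowest value were both Apelin-KO samples.

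In complex IV, cytochrome c oxidase, nuclear-encoded subunits surround a catalytic core encoded in mitochondrial DNA. Of its 10 tested IDs, 2 had a log2 fold change above 0 and 8 below, and with scaling to TPM 5 were above 0 and 5 below. Without WT 1, 9 of the 10 were above 0, and without Apelin-KO 1, 7 were, so the direction rests on those libraries. Cox6b1, which faces the intermembrane space, was at 503, 524 and 594 FPKM in WT and at 609, 510.3 and 520.1 FPKM in Apelin-KO samples (-0.02 ± 0.12 SE, limma, adjusted p = 0.98). Cox6a1 was at 468, 496 and 524.5 FPKM in WT and at 609, 480.3 and 561 FPKM in Apelin-KO samples (-0.14 ± 0.12, limma, adjusted p = 0.73). In both, Apelin-KO 1 was the highest sample and the groups overlapped. The log2 fold change of Cox6a1 was -0.07 without Apelin-KO 1 and -0.24 without Apelin-KO 2. Cox8a was at 331, 341 and 351 FPKM in WT and at 320, 313 and 319 FPKM in Apelin-KO samples (0.10 ± 0.09, limma, adjusted p = 0.74). Cox8a was the one subunit of this complex with every WT value above every Apelin-KO value. Cox7a2l, which takes part in joining complexes III and IV into supercomplexes, was at 41.0, 50.8 and 53.3 FPKM in WT and at 54.6, 45.2 and 55.6 FPKM in Apelin-KO samples.

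Cox7c had the largest negative log2 fold change of complex IV at -0.22 ± 0.42 (SE, limma, adjusted p = 0.89). It was listed at 2.03, 7.33 and 2.25 FPKM in WT and at 6.17, 4.02 and 2.62 FPKM in Apelin-KO samples. The WT samples held the highest and the lowest value, and the level was low beside the other subunits of this complex in all 6 samples. Without WT 2 the log2 fold change was -0.69, and without WT 1 it was 0.04. The gene lies at chr13:86044816-86046904 on the minus strand of GRCm38. A single-exon processed pseudogene, Gm12338, lies at chr11:75599763-75599954 on the minus strand and holds all 189 bases of the Cox7c coding sequence unchanged. The coding sequence is shown because no base in it tells Cox7c from Gm12338, and so it has no capitals.
Cox7c: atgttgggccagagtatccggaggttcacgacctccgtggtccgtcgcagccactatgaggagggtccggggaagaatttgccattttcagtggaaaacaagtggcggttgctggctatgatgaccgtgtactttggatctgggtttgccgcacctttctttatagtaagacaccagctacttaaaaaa
Gm12338 was listed at 58.5, 71.0 and 71.1 FPKM in WT and at 65.4, 62.2 and 64.5 FPKM in Apelin-KO samples. Cox7c and Gm12338 together came to 70.7 ± 9.16 FPKM in WT and 68.3 ± 2.85 FPKM in Apelin-KO samples (SD, n = 3 each). As for Ndufs5, the level of Cox7c is uncertain. Another gene that shares these windows, Gm10012, was listed at 0.640 FPKM in Apelin-KO 3 and at 0 in the other samples, and is not in the sum.

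**Figure D3:**
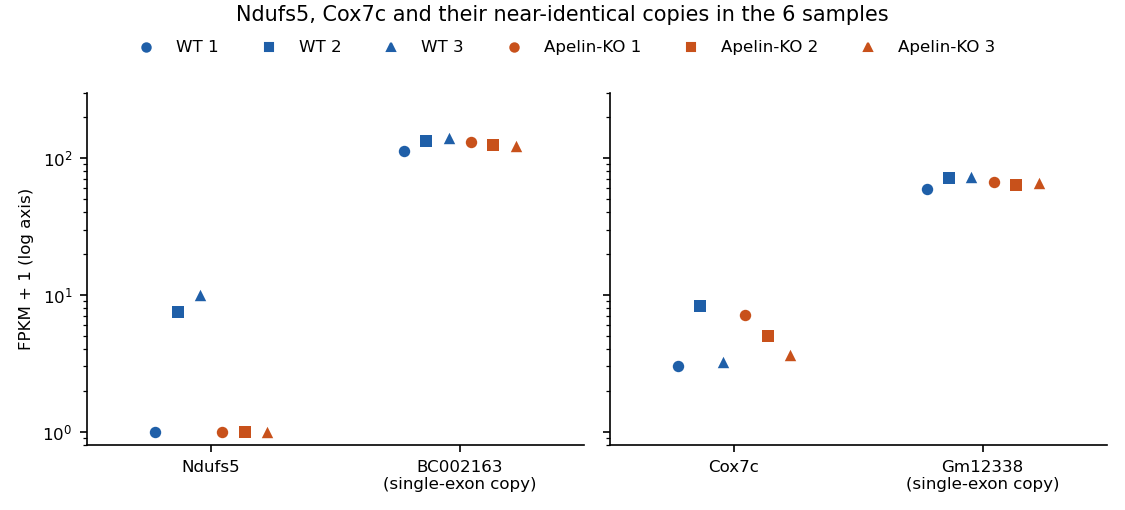
FPKM + 1 (log axis) of Ndufs5 and Cox7c and of their near-identical single-exon copies BC002163 and Gm12338 in 3 WT (blue) and 3 Apelin-KO samples (orange). The copies lie between 58.5 and 140 FPKM in all 6 samples, and the subunit genes at 8.99 FPKM or below.

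The tissue isoforms of complex IV were at or near 0. Cox6a2, Cox7a1 and Cox8b are known from heart and skeletal muscle, and Cox6b2, Cox7b2 and Cox8c from testis. Cox8c was listed at 0 in all 6 samples. Cox7b2 was at 0.659 FPKM in WT 2 and at 0 in the others, and Cox6b2 was at 0.765 FPKM in WT 1, 0.544 FPKM in Apelin-KO 2, 0.411 FPKM in Apelin-KO 3 and 0 in the others. With Atp5g2 of complex V, these 3 make up the 4 members that stayed under 1 FPKM in every sample. Cox8b was at 1.89 FPKM in WT 1 and at 0 in the others, Cox7a1 was at 1.24 FPKM in WT 1 and 1.34 FPKM in Apelin-KO 1 and at 0 in the others, and Cox6a2 ran from 0 to 1.22 FPKM with its highest value in WT 2. These 3 had a mean under 1 FPKM and were not tested. None of the 6 followed the genotype, since each was at 0 in samples of both. The widely expressed partners Cox6a1, Cox7a2 and Cox8a had means of 523, 177 and 329 FPKM.

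Complex V, the ATP synthase, held the most abundant subunit of all, and 13 of its 16 tested IDs had a log2 fold change above 0. The median was 0.05, the largest of the complexes, and the count was 13 with median-of-ratios and upper-quartile scaling and 15 with TPM. The count was 7 without WT 2, 9 without Apelin-KO 2 and 7 without Apelin-KO 3, so it rests on those libraries. Atp5b, the catalytic beta subunit, ranked 40 among the 24346 IDs by mean FPKM. It was at 890, 981 and 883 FPKM in WT and at 942, 910 and 878 FPKM in Apelin-KO samples (0.01 ± 0.10 SE, limma, adjusted p = 0.98). Its catalytic partner, the alpha subunit Atp5a1, had a mean of 309.5 FPKM, and Atp5c1, the rotating gamma subunit, one of 272 FPKM. The groups overlapped for all 3 of these subunits.

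The rotor ring of the ATP synthase is built from 1 small protein, subunit c, for which the mouse has the genes Atp5g1, Atp5g2 and Atp5g3. Atp5g3 was at 443, 504 and 494 FPKM in WT and at 535, 448.5 and 427 FPKM in Apelin-KO samples (0.04 ± 0.12 SE, limma, adjusted p = 0.95). Atp5g1 was at 22.7, 25.8 and 23.1 FPKM in WT and at 26.2, 21.6 and 17.6 FPKM in Apelin-KO samples (0.14 ± 0.15, adjusted p = 0.80), and without Apelin-KO 3 its log2 fold change was -0.0012. Atp5g2 was listed at 0 in all 6 samples. The order of levels, Atp5g3 above Atp5g1 above Atp5g2, held in each of the 6 samples. All coding windows of Atp5g2 and 92.8% of those of Atp5g1 occur in transcripts of other genes, and none of those of Atp5g3 do. Over the whole transcripts the shares were 86.9% for Atp5g2 and 7.54% for Atp5g1. The share of the 3 genes in the messenger for subunit c is therefore uncertain.

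Among the other members of complex V, Atp5k, the membrane subunit e, had one of the widest intervals. It was at 160, 168 and 186 FPKM in WT and at 191, 142 and 124 FPKM in Apelin-KO samples, with a log2 fold change of 0.19 (95% interval -0.21 to 0.59). Atp5l, the membrane subunit g, was listed at 3.85, 3.62 and 4.62 FPKM in WT and at 5.57, 3.18 and 2.07 FPKM in Apelin-KO samples. The highest and the lowest of these values were both from Apelin-KO samples. Atp5s and Atp5sl are not subunits of the enzyme proper, and the gene of the latter is now called Dmac2, for its part in the assembly of complex I. Atp5sl was at 5.06, 5.09 and 5.52 FPKM in WT and at 6.17, 7.40 and 5.61 FPKM in Apelin-KO samples. The groups did not overlap, by a narrow gap between WT 3 and Apelin-KO 3, and the log2 fold change was -0.24 ± 0.12 (SE, limma, adjusted p = 0.57). Atp5s had the largest positive value of the complex, with 5.52, 7.26 and 5.69 FPKM in WT and 4.57, 5.61 and 5.43 FPKM in Apelin-KO samples (0.20 ± 0.13, adjusted p = 0.66). Without WT 2 its log2 fold change was 0.09 and without Apelin-KO 1 it was 0.13, and that of Atp5sl was -0.15 without Apelin-KO 2.

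The low level of some subunits went along with coding sequence that other genes also carry. The 6 tissue isoforms, Atp5s and Atp5sl were low without it. They share no 75-base window of coding sequence with other genes, and their mean levels ran from 0 to 5.81 FPKM. With these left out of the classes below, 73 IDs remained. Of these, 46 had no 75-base window of coding sequence in another gene's annotated transcripts, and their mean levels ran from 33.9 to 914 FPKM. Of the 17 with up to 50% of windows shared, the levels ran from 26.4 to 523 FPKM. In the 5 with 50% to 90%, namely Ndufs5, Cox7a2l, Ndufa12, Atp5h and Uqcrb, the range was 2.59 to 251 FPKM, and in the 5 with 90% or more, Atp5g2, Atp5l, Cox7c, Atp5g1 and Ndufb4, it was 0 to 33.2 FPKM. The levels within the last class were uneven, since Atp5g1 averaged 22.8 FPKM and Ndufb4 33.2 FPKM. Over whole transcripts, untranslated bases included, the shares were lower. They were 86.9% for Atp5g2, 63.4% for Atp5l, 50.4% for Cox7c and 35.2% for Ndufb4. For Ndufs5 the share was 24.1% and for Atp5g1 7.54%. Ndufb4, of complex I, was at 31.0, 34.6 and 33.1 FPKM in WT and 44.0, 25.2 and 31.2 FPKM in Apelin-KO samples. The same files list Gapdh at 0 to 0.433 FPKM and Rpl11 and Rpl28 at 0 in all samples, although every cell uses these genes. A value at or near 0 in these files is therefore not taken here as absence of the transcript.

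**Figure D4:**
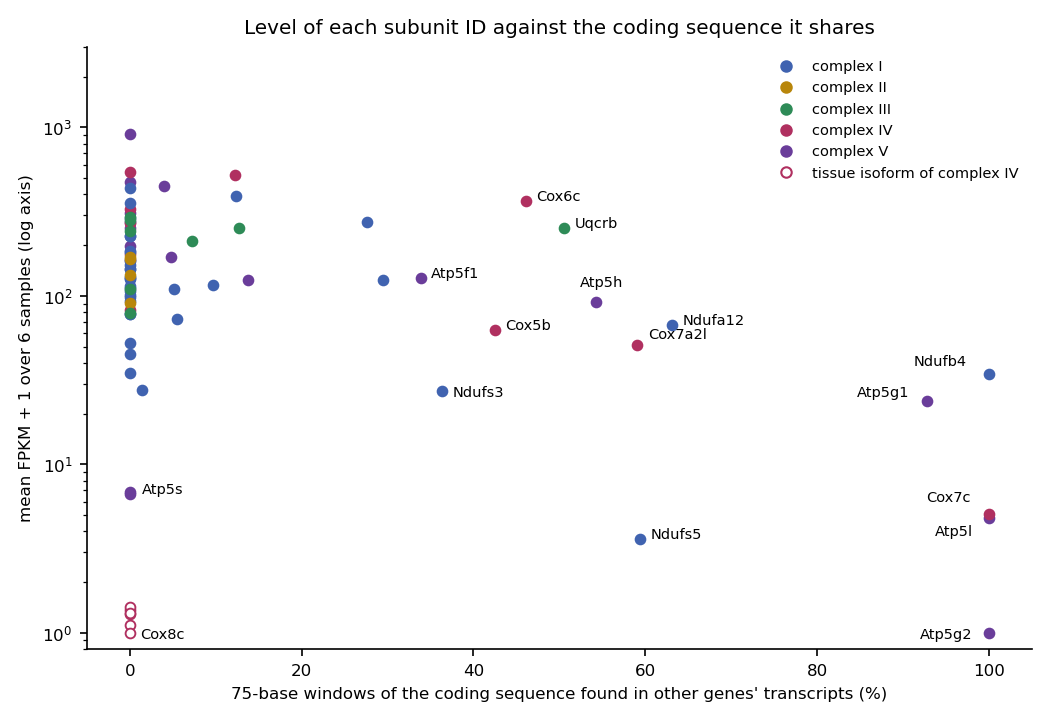
Mean FPKM + 1 over 6 samples (log axis) of each of the 81 subunit IDs against the percentage of 75-base windows of its coding sequence that occur in annotated transcripts of other genes. Open circles are the tissue isoforms of complex IV, which share no window and are low, and Atp5g2, Atp5l and Cox7c share every window and are listed at 0 to 4.07 FPKM, while Ndufb4 also shares every window and is at 33.2 FPKM.

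While no subunit was called between genotypes, the subunits varied together from sample to sample. For each tested subunit the mean over the 6 samples was subtracted from log2(FPKM + 1), and the median over the 74 subunits was taken for each sample. For WT 1, 2 and 3 it came to -0.09, 0.06 and 0.05, and for Apelin-KO 1, 2 and 3 to 0.14, -0.10 and -0.04. Over all genes tested the medians lay between -0.01 and 0.01. Apelin-KO 1 was thus the highest sample and Apelin-KO 2 the lowest, both of the same genotype, and they differed by 1.18-fold. In 68 of 74 subunits Apelin-KO 1 was above Apelin-KO 2 (91.9%), against 50.02% of all genes tested. Apelin-KO 1 was the highest of all 6 samples for 41 subunits (55.4%), against 19.8% of all genes tested, and WT 1 was highest for 0. WT 2 was above WT 1 for 69 subunits (93.2%), against 50.2% of all genes tested. These subunits share their libraries, so the counts describe the samples and are not tests.

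Across the complexes the pattern was alike in its highest sample but not in its lowest. Apelin-KO 1 had the highest median in all complexes, from 0.12 in complex II to 0.16 in complex IV. In complexes III and IV WT 1 was lowest, at -0.13 and -0.15, in complexes I and V Apelin-KO 2 was lowest, at -0.12 and -0.10, and in complex II Apelin-KO 3 was lowest, at -0.13. Complex IV had the widest range over the samples, 0.31 on the log2 scale, and complex V the narrowest, 0.23. The cytosolic ribosomal proteins had a similar range of 0.29, with Apelin-KO 2 lowest at -0.17 and WT 2 highest at 0.12. Enzymes of the TCA cycle and pyruvate dehydrogenase, which are in the same organelle, had a range of 0.13, with Apelin-KO 3 lowest at -0.09. Mitochondrial ribosomal proteins, also of that organelle, had a range of 0.25, with Apelin-KO 3 lowest at -0.14 and WT 2 highest at 0.11, and 60 of 76 had Apelin-KO 1 above Apelin-KO 2.

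Genes with short transcripts shared part of this pattern. Tested genes with a transcript under 700 bases, 294 in number with the short subunits included, had medians of -0.09, 0.04 and 0.06 for the WT samples, against 0.06, -0.15 and -0.05 for the Apelin-KO samples. Apelin-KO 1 was above Apelin-KO 2 in 61.6% of these genes, against 91.9% of the subunits. Genes of 1500 bases or more had medians between -0.02 and 0.02. The 27 subunits under 700 bases had a range of 0.31 over the samples and the 47 longer ones a range of 0.17. Apelin-KO 1 was highest in both classes, by 1.22-fold and 1.13-fold over Apelin-KO 2. Of the sums of hematopoietic markers given above, Apelin-KO 1 had the lowest and WT 2, with the next highest subunit median, the highest. The part of transcript length and of the other cells in the shared pattern was not tested.

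**Figure D5:**
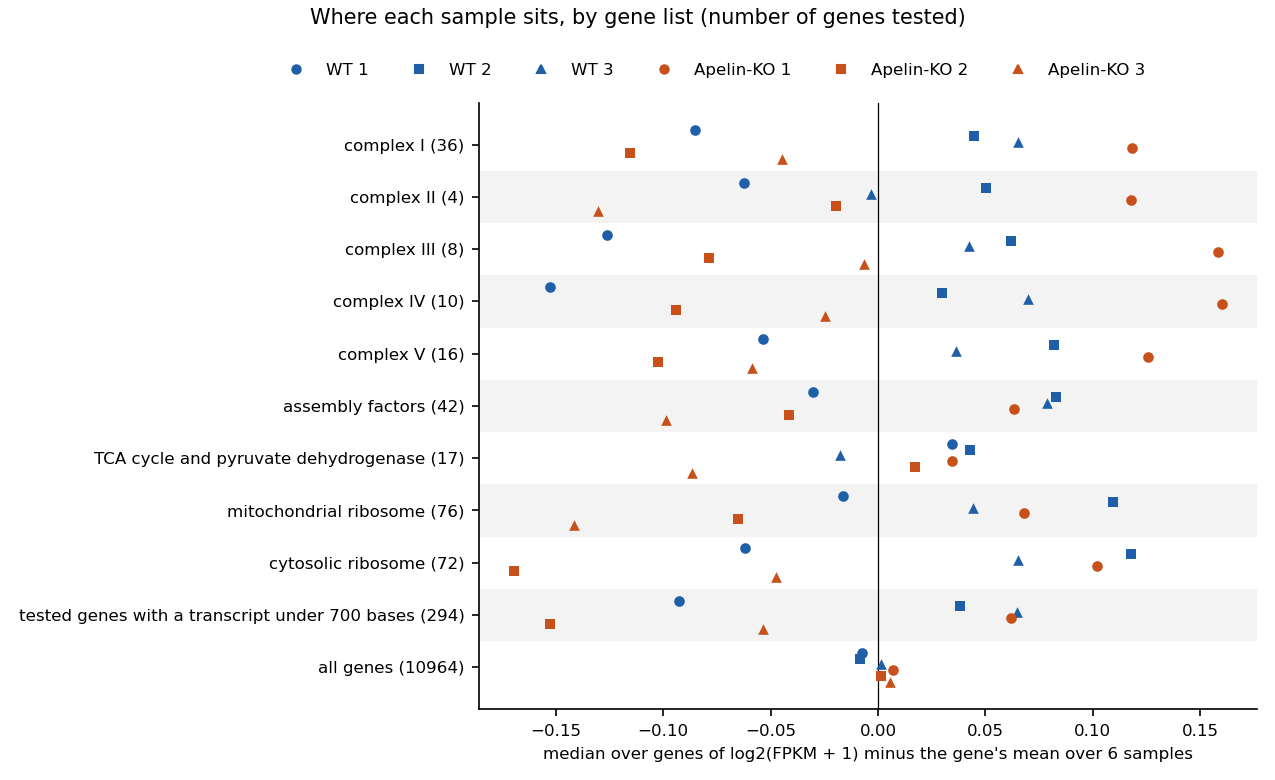
Median over genes of log2(FPKM + 1) minus each gene's mean over 6 samples, for 3 WT (blue) and 3 Apelin-KO samples (orange), by complex and for comparison lists, with the number of genes tested in parentheses. Apelin-KO 1 lies to the right in all complexes and WT 1 and Apelin-KO 2 to the left, while the samples coincide near 0 over all genes. In complex II Apelin-KO 3 lies farthest to the left and Apelin-KO 2 is near 0.

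Promoters of respiratory genes are known for binding sites of NRF1, of the ETS factor GABPA (NRF-2) and of YY1. From 250 bases before to 50 bases after each RefSeq transcription start of GRCm38.p6, both strands were searched for GCGCANGCGC (NRF1), CCGGAAG (GABPA) and AAGATGG (YY1). These motifs do not overlap in the promoters shown. A RefSeq promoter was at hand for 69 of the 81 members. The NRF1 letters were found in 17 of the 69 (24.6%), against 5.19% of 27025 genes. The GABPA letters were found in 16 (23.2%), against 9.93% of genes, and the YY1 letters in 12 (17.4%), against 7.28%. In the 250 bases before the start alone, the NRF1 letters were found in 13 (18.8%, against 4.23% of genes) and the GABPA letters in 12 (17.4%, against 7.83%). The YY1 letters were found there in 2 (2.90%), against 5.18% of genes, so the YY1 share above the background comes from the bases after the start. The promoters of Cox6a1 and Sdhd carry both of the first motifs, and that of Sdha carries the NRF1 letters 3 times. They are shown as subunits of complexes IV and II whose 6 values are given above, as the 250 bases before the start with the NRF1 and GABPA matches in capitals. All lie on the minus strand and are written in the direction of transcription.
Cox6a1, chr5:115348959-115349208: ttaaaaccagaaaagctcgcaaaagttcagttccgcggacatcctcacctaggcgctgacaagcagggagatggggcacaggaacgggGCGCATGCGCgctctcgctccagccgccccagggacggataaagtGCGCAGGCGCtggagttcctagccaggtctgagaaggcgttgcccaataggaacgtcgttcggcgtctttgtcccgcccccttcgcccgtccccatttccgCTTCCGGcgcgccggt
Sdhd, chr9:50603850-50604099: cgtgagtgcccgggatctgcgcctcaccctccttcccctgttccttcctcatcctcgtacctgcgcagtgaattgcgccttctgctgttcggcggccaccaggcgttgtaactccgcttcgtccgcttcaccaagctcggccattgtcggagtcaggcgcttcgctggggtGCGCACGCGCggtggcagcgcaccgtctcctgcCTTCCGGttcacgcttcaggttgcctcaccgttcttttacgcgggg
Sdha, chr13:74350241-74350490: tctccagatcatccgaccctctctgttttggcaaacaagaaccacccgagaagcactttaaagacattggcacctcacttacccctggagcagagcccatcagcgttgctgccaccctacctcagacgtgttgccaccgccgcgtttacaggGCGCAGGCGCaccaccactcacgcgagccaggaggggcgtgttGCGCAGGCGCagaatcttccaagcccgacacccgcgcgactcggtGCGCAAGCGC
A match is a description of the letters and no measure of binding. The factors themselves were at similar levels in both genotypes. Nrf1 was at 13.9, 13.1 and 15.2 FPKM in WT and at 15.4, 13.8 and 15.2 FPKM in Apelin-KO samples. Gabpa was at 15.8, 18.5 and 17.2 FPKM in WT and at 14.5, 15.8 and 18.4 FPKM in Apelin-KO samples. Ppargc1a, the coactivator of mitochondrial biogenesis in muscle and brown fat, was at 0.031 FPKM in WT 1 and at 0 in the other samples.

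Other genes of the pathway were taken from lists of known function. The tables held none of the 13 subunits encoded in mitochondrial DNA, so those subunits of complexes I, III, IV and V are not analysed here. Some nuclear-encoded subunits have names outside the pattern. Cox4i1, the ubiquitous isoform of subunit 4 of complex IV, was at 483, 497 and 514 FPKM in WT and at 530, 437 and 511 FPKM in Apelin-KO samples. Cyc1, cytochrome c1 of complex III, was at 108, 129 and 113 FPKM in WT and at 133, 113 and 104 FPKM in Apelin-KO samples. In both genes Apelin-KO 1 was the highest sample, as for 41 of the members. Ndufab1, the acyl carrier protein of complex I, was at 9.59, 8.76 and 8.97 FPKM in WT and at 8.25, 6.22 and 4.795 FPKM in Apelin-KO samples (0.47 ± 0.17 SE, limma, adjusted p = 0.51). Ndufa4l2, a relative of Ndufa4 that is known as a hypoxia-induced and pericyte gene, was at 1.68, 1.02 and 0.86 FPKM in WT and at 1.83, 2.18 and 3.48 FPKM in Apelin-KO samples (-0.66 ± 0.21, limma, adjusted p = 0.50). The groups did not overlap for either gene, and neither passed the adjustment. The summed pericyte markers, among them Ndufa4l2, were at 150.1 to 187 FPKM in WT and 199 to 225 FPKM in Apelin-KO samples. Most of that sum came from Kcnj8 (means 77.8 FPKM in WT and 93.3 FPKM in Apelin-KO) and Abcc9 (63.7 and 74.6 FPKM). Of the 9 pericyte markers tested, 7 had a log2 fold change below 0 and 2, Cspg4 and Tagln, above 0.

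Of 42 tested assembly factors, which build the complexes without being part of them, 0 passed the adjustment with limma. At an unadjusted p under 0.05, 2 were higher in WT and 0 lower. These were Bcs1l, the chaperone that inserts the Rieske protein into complex III, and Lrpprc, which stabilizes mitochondrial messengers. Bcs1l was at 6.31, 9.66 and 7.25 FPKM in WT and at 6.30, 5.04 and 4.14 FPKM in Apelin-KO samples (0.50 ± 0.19 SE, limma, adjusted p = 0.51). Lrpprc was at 13.1, 14.6 and 12.2 FPKM in WT and at 10.7, 11.03 and 8.34 FPKM in Apelin-KO samples (0.38 ± 0.13, limma, adjusted p = 0.51). The median log2 fold change of the 42 factors was 0.08. Of the 11 tested regulators, 1 had an unadjusted p under 0.05. This was Tfb1m, which methylates the RNA of the small mitochondrial ribosomal subunit, with 1.77, 1.76 and 1.72 FPKM in WT and 0.832, 0.774 and 0.28 FPKM in Apelin-KO samples (0.77 ± 0.15, limma, adjusted p = 0.50). Tfb1m reached the minimum of 1 FPKM for testing only through its WT values (means 1.75 FPKM in WT and 0.629 FPKM in Apelin-KO), so its count is no support for a difference. Of 17 enzymes of the TCA cycle and pyruvate dehydrogenase, 0 had an unadjusted p under 0.05 in either direction, and their median was 0.04. Of 76 tested mitochondrial ribosomal proteins, 4 were higher in WT at an unadjusted p under 0.05 and 0 lower, with a median of 0.09, and of 72 tested cytosolic ribosomal proteins 4 were higher and 0 lower, with a median of 0.07. No gene of these lists had an adjusted p under 0.05 (lowest 0.50), and the shares at an unadjusted p were below the 9.42% of all genes tested, apart from the 8 tested subunits and partners outside the naming pattern, where 1 was higher and 1 lower.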

How the data were processed

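The authors mapped 75-base single-end reads of stranded mRNA libraries to mm10 with TopHat and Bowtie2 and computed the FPKM with Cufflinks 2.2.1. The paper's methods and the submitters' processing notes give different versions of the mapping tools. The notes name TopHat2 2.1.1, Bowtie2 2.2.4, SAMtools 1.0 and bcl2fastq 2.17.1.14. The FPKM were used as deposited, to 3 decimals for each gene symbol in each sample. The annotation, the strand setting and the treatment of reads that match several places are not given in the sources used here.

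The members and lists were chosen with earlier results of these data known. Of 24346 genes, the 10964 that averaged 1 FPKM or more entered limma 3.58.1 (R 4.3.3) as log2(FPKM + 1), in a two-sided moderated test of 3 WT against 3 Apelin-KO samples, with Benjamini-Hochberg adjustment over all genes tested. For low genes this scale makes fold changes too small. Full statistics were given within each complex for the subunit with the lowest p, the largest value in each direction and the highest level, and for the Sdh and Atp5g genes. Ndufa4, Ndufa13, Ndufb10, Atp5k and the genes of the pathway lists described with statistics were chosen after their values were seen. Median-of-ratios, upper-quartile and TPM scaling, other filters, pseudocounts and variances, a replicate block and the removal of each sample were alternatives.

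Depth was estimated from 3742 genes with 1 transcript longer than 700 bases, taking fragments as 200 bases long. At the estimated depths, 69% to 73.3% of low values came within 0.1 of a whole number of reads. No count test was run on these estimates, and they cover counting error only. Positions, coding sequences and shared windows come from the GENCODE annotation of GRCm38 and promoters from RefSeq, read with Python 3.11.15 and Biopython 1.88. The fit was tested on simulated data. The level of 1 subunit is not reported here by name.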

Additional observations from a re-analysis of the deposited data

How the results depend on the processing

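The count of 0 subunits with an adjusted p under 0.05 (limma) held in all alternatives except without WT 1, where Ndufs5 passed (range without 1 replicate 0 to 1). Over all genes the count of 1 became 2 with no filter, 2 with a minimum of 5 FPKM, 0 with each gene's own variance, 2 with an intensity trend, and 0 to 3 without 1 replicate. The count of 1 subunit at an unadjusted p under 0.05 became 0 with a minimum of 5 FPKM, 2 with TPM, 2 with each gene's own variance, 2 with an intensity trend, 2 with Atp5s and Atp5sl left out and 5 subunits outside the naming pattern added, and 0 to 2 without 1 replicate. The count of 4 subunits whose groups do not overlap became 3 with upper-quartile scaling, 5 with TPM and 6 to 18 without 1 replicate, where fewer samples make separation easier (20.1% to 30.03% of all genes). Members near 0 numbered 2 with a limit of 0.5 FPKM and 7 with a mean under 1 FPKM. The medians of the members and of the complexes moved by less than the SD between samples in all alternatives. The labels do not say whether the replicate numbers pair the samples. Deviations of samples with the same number correlated at -0.14, 0.21 and -0.02, and those with different numbers at -0.20 to 0.21, which cannot decide it. With the replicate block, 0 subunits had an adjusted p and 1 an unadjusted p under 0.05, and the median stayed at 0.01. Among the 19 genes with full statistics, 12 changed sign in some alternative, none of them called. More members did so than are listed, as the numbers above 0 show (38 of 74, 53 with TPM, 24 to 56 without 1 replicate). With scaling the listed changes were Sdhc (median-of-ratios 0.0017, upper-quartile 0.015, TPM 0.043), Sdhb (upper-quartile 0.010, TPM 0.038), Ndufa3 (TPM 0.011), Sdhd (TPM 0.00019) and Cox6b1 (TPM 0.028). Without 1 replicate the values ran from -0.17 to 0.12 for Ndufa3, -0.035 to 0.10 for Sdha, -0.094 to 0.092 for Sdhb, -0.042 to 0.068 for Sdhc, -0.13 to 0.23 for Uqcr11, -0.046 to 0.10 for Uqcrq, -0.69 to 0.038 for Cox7c, -0.085 to 0.065 for Cox6b1, -0.037 to 0.038 for Atp5b, -0.0012 to 0.27 for Atp5g1 and -0.031 to 0.13 for Atp5g3. The cause was not tested. Depth limits the members listed under 1 FPKM, where a value rests on a few reads at most.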
